A study of Mus musculus with 2 samples.

Results

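Small RNA tags of 24 to 27 nt without a miRNA hairpin match were taken from the small RNA sequencing of J1 mouse ES cells. A tag is a distinct sequence with the number of clean reads that carry it. The tags were chosen by length, by a sum of at least 10 reads over both libraries, and by the absence of a full match without mismatch to any of the 2202 miRNA hairpins of GENCODE vM21. This gave 28367 members of 1766298 distinct tags, and of 96635 tags of any length with at least 10 reads. Of the members, 26228 had a read in the DMSO library, 27996 in the AICAR library and 25857 in both.

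J1 cells were kept on gelatin with LIF and received 1 mM AICAR or the same volume of DMSO for 24 h. AICAR is an activator of the AMP-activated protein kinase, and DMSO is its solvent. There was 1 library per condition. The control is titled J1_U, whereas its treatment label is DMSO. No test between the conditions was therefore possible, and each ratio below compares the libraries. The 95% intervals describe the precision of counting alone, because libraries were amplified without molecular identifiers and reads need not be separate molecules. In such bulk RNA, fewer cells of a kind and less RNA per cell cannot be told apart. Marker mRNAs of ES cells were not measured by these libraries.

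Several kinds of RNA are known to give small RNAs of this size. Piwi-interacting RNAs, the germ line guides of Piwi proteins, mostly begin with U and, when made by the amplification cycle, often carry A at the tenth base. Fragments of ribosomal RNA, transfer RNA and small nucleolar RNA fall in the same window and pile up at defined ends of their parent molecules. Isoforms of miRNAs with added bases at the 3′ end are usually shorter, and can escape a match to the hairpin because the added bases are not in the gene.

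The 10 most abundant members held 33.7% of all member reads, and 7 of them were versions of 2 sequences. They are printed as deposited because the base composition and the totals below rest on them. None of the 10 matched a GENCODE transcript on either strand. Cytoplasmic transfer RNAs and complete large ribosomal RNAs were missing from the transcripts used, so the parent RNA of these 10 was not tested. Capitals mark the 24 bases that the versions share, and the 3 members without capitals stand alone among the 10.
Rank 1: AGGTGTAGAATAAGTGGGAGGCCC
Rank 4: AGGTGTAGAATAAGTGGGAGGCCCccg
Rank 5: AGGTGTAGAATAAGTGGGAGGCCCc
Rank 6: agAGGTGTAGAATAAGTGGGAGGCCC
Rank 7: AGGTGTAGAATAAGTGGGAGGCCCcc
Rank 2: CGTGGGAAATGTGGCGTACGGAAG
Rank 3: gCGTGGGAAATGTGGCGTACGGAAG
Rank 8: gcggcgactctggacgcgagccggg
Rank 9: tccctggtctagtggttaggattcgg
Rank 10: tgaattgcaggacacattgatcatcg

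The first member was read 779779 times in DMSO and 742723 times in AICAR, or 41323 and 35215 reads per 1000000 clean reads (RPM). It alone was 14.2% of the member reads in DMSO and 11.4% in AICAR, and its ratio of AICAR to DMSO RPM was 0.852 (95% exact binomial interval 0.849 to 0.855). Its 4 versions differed from it by bases at 1 end and had ratios from 0.747 (rank 4) to 0.960 (rank 5), so all 5 lay lower in the AICAR library. The second sequence went the other way. The rank 2 member had 11368 RPM in DMSO and 18525 RPM in AICAR, a ratio of 1.63 (1.62 to 1.64). The rank 3 member, which carries 1 more base at the 5′ end, had 8239.8 and 17736 RPM, a ratio of 2.15 (2.14 to 2.17). Both were therefore higher in the AICAR library.

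Of the remaining leaders, the rank 8 member had 2758 RPM in DMSO and 4052 in AICAR, a ratio of 1.47 (1.45 to 1.49). The rank 9 member had the largest ratio of the 10, with 1796 RPM in DMSO and 4551 in AICAR, or 2.53 (2.503 to 2.57). The rank 10 member had 3248 and 2512 RPM, a ratio of 0.773 (0.764 to 0.782). Among the 10 leaders, 4 had a higher and 6 a lower RPM in the AICAR library, and 2 were at least 2-fold apart.

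Members were abundant in both libraries. They summed to 5480018 of 18870345 clean reads in DMSO and 6518288 of 21091226 in AICAR. These are 290404 RPM, or 29.04% of the library (95% Wilson interval 29.02% to 29.06%), and 309052 RPM, or 30.91% (30.89% to 30.92%). The ratio was 1.06 (1.06 to 1.07). The side of 1 on which a ratio near 1 falls rests on the denominator, here and below. Per hairpin read each ratio is 0.741 times as large, so that ratios between 1 and 1.35 turn to lower in AICAR, the total among them at 0.788. With median-ratio size factors each is 1.16 times as large, and ratios between 0.865 and 1 turn to higher. Members held 94.6% of the reads of all non-hairpin tags of 24 to 27 nt in DMSO and 93.1% in AICAR, so the minimum of 10 reads removed few reads. It removed most sequences, since 537732 of the 566099 non-hairpin tags of this length had fewer reads. The limit was close to many members, with 1919 members at exactly 10 reads and 2396 tags just outside it at 9 reads. The median member had 26 reads, 38.9% of members had fewer than 20, and 1111 members had at least 1000.

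The direction of the difference depended on length. Members of 24 nt had 114171 RPM in DMSO and 127456 in AICAR, a ratio of 1.12 (1.11 to 1.12), and members of 25 nt had 68528 and 83162 RPM, a ratio of 1.21 (1.21 to 1.22). The order turned at 26 nt, where 62727 RPM in DMSO stood against 60523 in AICAR, a ratio of 0.965 (0.962 to 0.967). At 27 nt the RPM was 44978 in DMSO and 37912 in AICAR, a ratio of 0.843 (0.8403 to 0.845). Single tags bear on 2 of these values. Without its most abundant member the ratio at 24 nt was 1.27, and at 25 nt it was 1.09. At 26 and 27 nt it was 0.982 and 0.870.

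**Figure D1:**
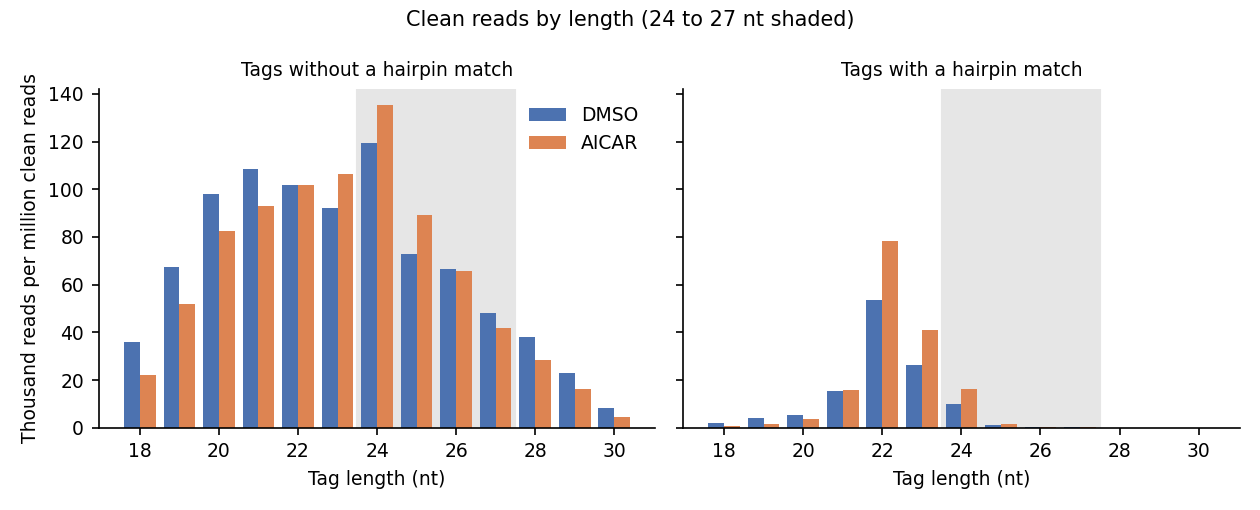
RPM of clean reads in units of 1000 (vertical axis) against tag length in nt (horizontal axis) for all tags without (left) and with (right) a hairpin match, 1 bar per library, with 24 to 27 nt shaded. Non-hairpin tags peak at 24 nt in both libraries, at 119269 RPM in DMSO and 135244 RPM in AICAR, whereas hairpin tags peak at 22 nt.

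Non-hairpin reads of any count were most numerous at 24 nt, with 119269 RPM in DMSO and 135244 in AICAR. At 26 to 32 nt and at 18 to 21 nt the DMSO library had the higher RPM at each length, and at 23 to 25 nt the AICAR library did. At 22 nt the libraries had 101977 and 101694 RPM. Hairpin reads in the same window were few, falling from 7.73% of the reads at 24 nt in DMSO and 10.8% in AICAR to 0.3997% and 0.527% at 27 nt.

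A lower ratio at greater length was also seen within tags that share a 5′ end. Members were grouped by their first 18 bases, which gave 13426 starts. The 1892 starts with members of all 4 lengths held 90.0% of the member reads, and 23 starts held 50% of them. Among the 132 starts with all 4 lengths and at least 10000 reads, the 27 nt members had a lower ratio than the 24 nt members at 85 starts. The median difference of the log2 ratio, 27 nt minus 24 nt, was -0.21. Starts reached below the window too. Of all starts, 8246 also began a non-hairpin tag of 18 to 23 nt with at least 10 reads, and these starts held 97.9% of the member reads. Most member reads therefore belonged to sets of tags with 1 start and different 3′ ends.

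Reads were concentrated on few tags. In DMSO 52 members and in AICAR 50 members made up 50% of the member reads. The 10 most abundant members held 33.3% (95% Wilson interval 33.27% to 33.35%) in DMSO and 34.0% (34.01% to 34.08%) in AICAR. The 100 most abundant held 58.0% and 56.7%, and the 1000 most abundant 83.7% and 81.3%. Non-hairpin tags of 18 to 23 nt were less concentrated, with 11.03% and 8.25% of their reads on the first 10 of 58635 tags. Those of 28 to 30 nt were close to the members, with 30.97% and 31.3% on 10 of 6040 tags. Hairpin tags of 24 to 27 nt, of which there were 457, had 78.0% and 82.1% on their first 10. The rank of each tag came from the same reads, so these shares are a description.

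**Figure D2:**
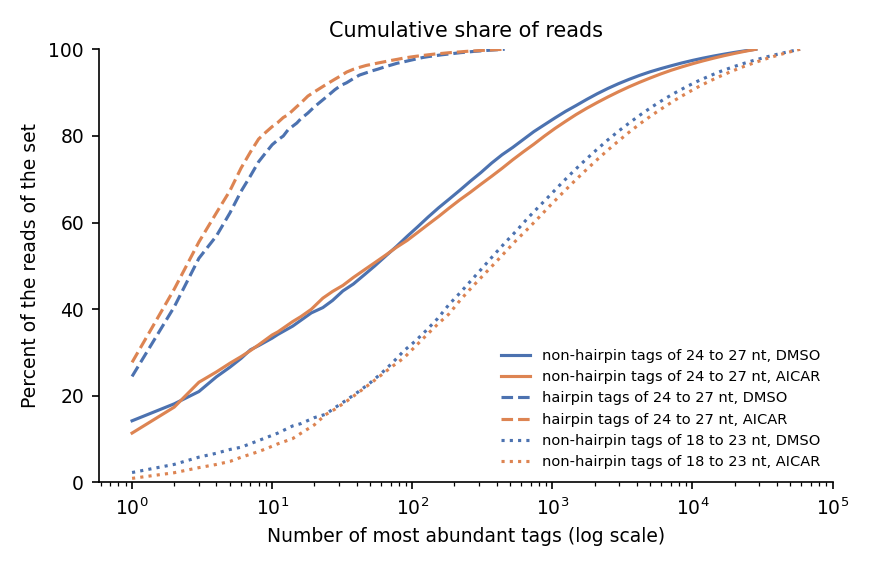
Cumulative percent of the reads of each set (vertical axis) against the number of its most abundant tags, ranked on the sum over both libraries (horizontal axis, log scale), with 1 line per set and library. The curves of the 2 libraries lie close together for the members and pass 50% at about 50 tags, to the right of hairpin tags of 24 to 27 nt and to the left of non-hairpin tags of 18 to 23 nt.

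Many members were pieces of each other. When members that share any 18 bases were joined, 5418 chains formed, of which 2706 were single members with 0.522% of the reads. The largest chain held 25.1% of the member reads, the 10 largest 60.01% and the 100 largest 90.0%. The largest chain had 566 members, among them the rank 1 tag and its 4 versions, and none matched a transcript. It had 82952 RPM in DMSO and 68784 RPM in AICAR, a ratio of 0.829 (0.827 to 0.831). Of its reads, 78.8% began at the same base. The second chain had 241 members around the rank 2 tag, with 26324 RPM in DMSO and 46599 in AICAR, a ratio of 1.77 (1.76 to 1.78). In the largest chain the ratio was 0.848 at 24 nt, 0.905 at 25 nt, 0.782 at 26 nt and 0.740 at 27 nt, below 1 at each length. In the second chain it was 1.61, 1.99, 1.76 and 1.56, above 1 at each length. Of the 92 chains with at least 10000 reads, 14 had a ratio of at least 2 and 6 a ratio of at most 0.5.

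By reads, T, which stands for U in the sequenced cDNA, was less common at base 1 than in the interior of the members. T opened 11.996% of the member reads in DMSO (95% Wilson interval 11.97% to 12.02%), 13.2% in AICAR (13.15% to 13.20%) and 12.6% of both together. T made up 21.1% of the interior bases, positions 2 to 9 and 11 to 20, in DMSO and 21.01% in AICAR. Among the first 20 positions, base 1 ranked 18th in its share of T in DMSO and 17th in AICAR. The commonest first base was A, with 41.0% of the reads in DMSO and 36.0% in AICAR, followed by G with 25.1% and 27.4%. Counted once per distinct member, T opened 23.2% of the members, close to the 22.4% of the interior bases, and base 1 then ranked 5th of the 20 positions. Hairpin tags of 20 to 23 nt, which include most miRNAs, began with T in 31.3% of the reads in DMSO and 30.7% in AICAR.

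A stood at base 10 in 41.1% of the member reads in DMSO (41.10% to 41.18%), 39.4% in AICAR (39.39% to 39.47%) and 40.2% of both together, above the 24.1% and 24.2% of the interior bases. This share came from the leading tags. It was 31.5% without the most abundant member, which has A at base 10, and 24.8% without the 10 most abundant. Counted once per member it was 24.7%, the 12th highest of the first 20 positions, where the shares ran from 22.1% to 31.3%. The position with the most A by reads was base 9, with 51.0% in DMSO and 51.2% in AICAR. Reads with A at base 10 were less common after T at base 1 (14.0% in DMSO and 17.2% in AICAR) than after another first base (44.8% and 42.8%). Counted once per member the order was the reverse, with A at base 10 in 26.2% of the members that begin with T and 24.2% of the rest. In the members at least 10-fold higher in AICAR, described below, it was 47.3% of the AICAR reads that begin with T and 21.96% of the rest. Counted once per member, that set had 36.5% and 28.7%. With any first base, A at base 10 was 29.11% of its AICAR reads, below the 33.63% of its interior bases. Counted once per member these shares were 31.04% and 32.62%. In its DMSO reads the order was the reverse, with 35.9% and 31.82%. How far the 47.3% rests on a few tags was not tested. Over all members by length, A at base 10 ran from 29.0% of the reads at 26 nt to 44.1% at 25 nt, and T at base 1 from 8.81% at 24 nt to 19.8% at 26 nt.

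**Figure D3:**
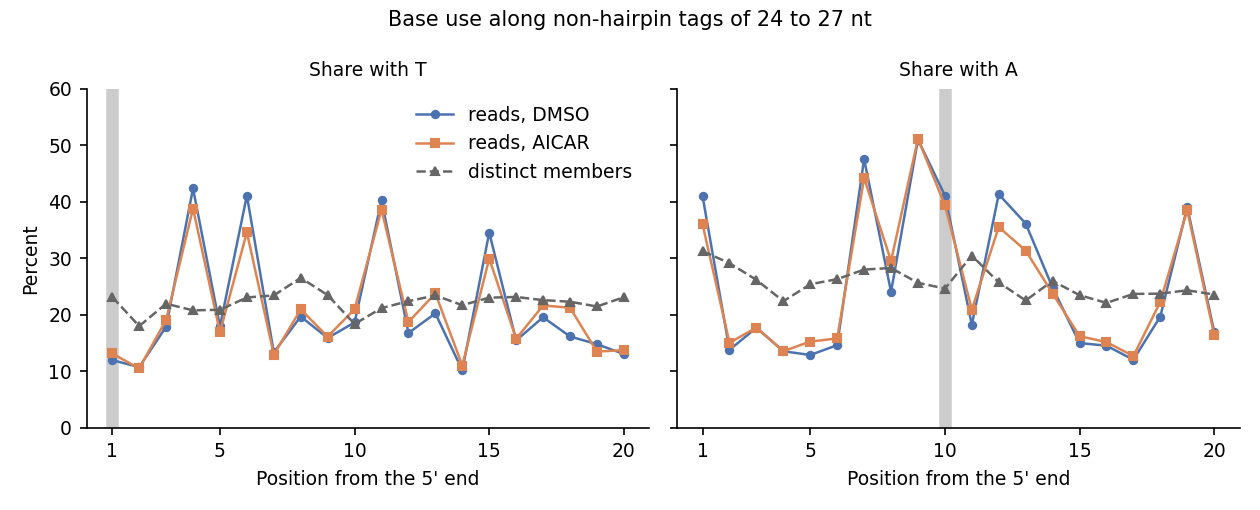
Percent with T (left) and with A (right) at each of the first 20 positions from the 5′ end (horizontal axis), weighted by reads of each library (circles and squares) or with each distinct member counted once (triangles). The grey bars mark base 1 and base 10. The read-weighted lines swing between 10.2% and 51.2% over the libraries, and the lines of distinct members stay between 18.01% and 31.3%.

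Most members matched no annotated transcript. A match over the whole tag, without mismatch and on the sense strand, was found for 3288 members (11.6%). They held 14.2% of the member reads in DMSO (14.13% to 14.19%), 11.9% in AICAR (11.83% to 11.88%) and 12.9% of both together. Matched members had 41128 RPM in DMSO and 36651 in AICAR, a ratio of 0.891 (0.888 to 0.894). Another 953 members matched the opposite strand of a transcript and held 2.79% of the reads. The remaining 24126 members (85.0%) had no match on either strand, with 241679 RPM in DMSO and 263319 in AICAR, a ratio of 1.09 (1.088 to 1.091). The transcripts used hold no cytoplasmic transfer RNA genes and no complete entry for the large ribosomal RNAs, and the genome itself was not searched. A match therefore shows that an entry holds the sequence, and whether the tag came from that transcript was not tested.

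Only 2 transcript types held at least 1% of the member reads. Long non-coding RNAs held 9.02% with 1651 members and had 30751 RPM in DMSO and 23814 in AICAR, a ratio of 0.774 (0.771 to 0.777). The entry Gm42418, described below, held 567532 of their 580288 reads in DMSO and 482877 of 502261 in AICAR. Small nucleolar RNAs (snoRNAs), which guide the modification and processing of ribosomal RNA, held 2.89% with 393 members. They had 7564 RPM in DMSO and 9694 in AICAR, a ratio of 1.28 (1.27 to 1.29). Protein-coding transcripts held 0.477% with 724 members (ratio 1.15, 1.13 to 1.16). Lars2, described below, held 19431 of their 25084 reads in DMSO and 25062 of 32110 in AICAR. The miscellaneous small RNAs held 0.205% (ratio 1.048, 1.02 to 1.07) and snRNAs of the spliceosome 0.126% (ratio 0.817, 0.792 to 0.844). Annotated rRNA, which included no complete large ribosomal RNA here, held 0.0652% (ratio 1.21, 1.16 to 1.27). Mitochondrial rRNA and tRNA were minor but differed most between the libraries. The 97 Mt_rRNA members had 84.7 RPM in DMSO and 204 RPM in AICAR, a ratio of 2.41 (2.28 to 2.56), and this came from 1 of the 2 genes. The 60 members of mt-Rnr2 had 62.6 RPM in DMSO and 185 in AICAR, a ratio of 2.95 (2.76 to 3.15), whereas the 37 members of mt-Rnr1 had 22.05 and 19.8 RPM, a ratio of 0.897 (0.781 to 1.03). The 34 Mt_tRNA members had 12.7 and 29.9 RPM, a ratio of 2.35 (2.02 to 2.74). Of the Mt_rRNA members 28.9% were at least 2-fold higher and 13.4% at least 2-fold lower, and 1 member held 26.4% of their reads. Of the Mt_tRNA members 64.7% were at least 2-fold higher and none lower. Over all members these shares were 38.2% and 19.5%, and over all tags with at least 10 reads 32.7% and 27.1%. All 196 members that matched a pseudogene also matched another type and were counted there.

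The matched reads came mostly from 1 entry. Of 389 genes with a match, the lincRNA Gm42418 held 67.8% of the matched reads and the first 10 genes 94.7%. In GRCm38, Gm42418 is a plus-strand gene of chromosome 17 (39846958 to 39848788), with a transcript of 1831 nt. An rRNA entry, CT010467.1 (39846353 to 39848827), and another lincRNA, AY036118 (39847113 to 39848035), are annotated on the minus strand over it. In all, 2171 members with 11.2% of the member reads matched the complement of CT010467.1, of which 1349 also matched a gene in sense, Gm42418 in the first place. Complete large ribosomal RNAs were not among the transcripts used, and whether members that match Gm42418 came from its transcript was not tested. The 1356 members of Gm42418 summed to 30075 RPM in DMSO and 22895 in AICAR, a ratio of 0.761 (0.758 to 0.764).

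The difference was not uniform along the transcript. In windows of 100 nt by 5′ end, members began in 16 of 19 windows, of which 11 had a ratio under 1 and 5 a ratio over 1. Positions 1101 to 1200 held the most reads, with 9703 RPM in DMSO and 9332 in AICAR, a ratio of 0.962 (0.956 to 0.968). Positions 1 to 100 had 6868 and 3562 RPM, a ratio of 0.519 (0.514 to 0.523), and positions 201 to 300 had 5647 and 5711 RPM, a ratio of 1.01 (1.003 to 1.02). The lowest ratio, 0.299 (0.2798 to 0.3204), lay at 801 to 900. Among the 147 Gm42418 members with at least 1000 reads, the ratio ran from 0.0328 to 4.08, so tags that match the same entry differed widely. By length the ratio was 0.820 at 24 nt, 0.763 at 25 nt, 0.751 at 26 nt and 0.642 at 27 nt.

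**Figure D4:**
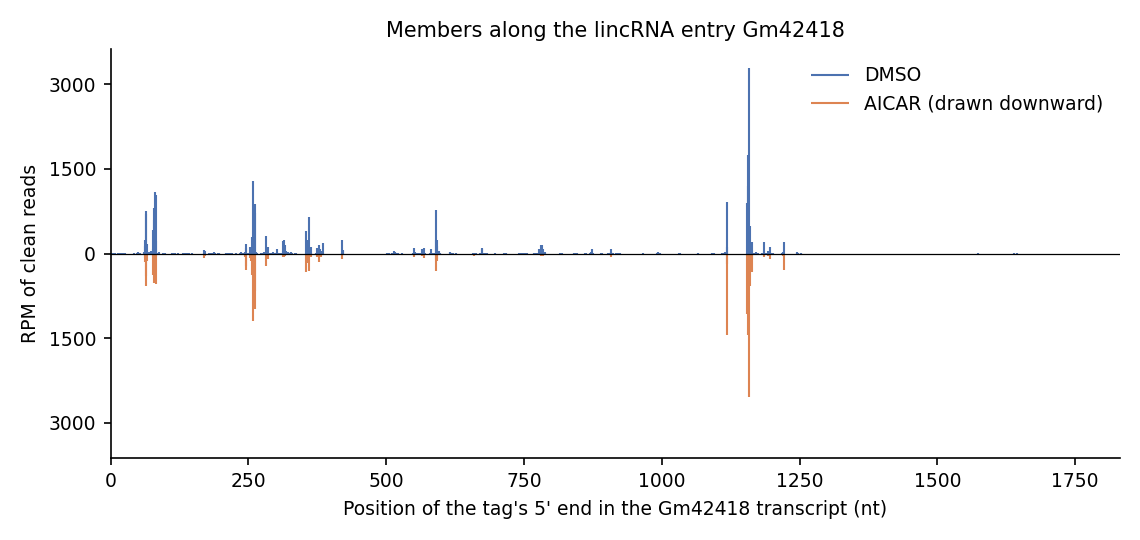
RPM of clean reads (vertical axis) of members by the position of their 5′ end in the Gm42418 transcript of 1831 nt (horizontal axis), with DMSO drawn upward and AICAR downward. Reads fall on a few positions in both libraries, and 11 of the 16 windows of 100 nt with members have a ratio under 1.

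A set of members that share 1 start on Gm42418, at base 80 of the transcript (39847037 of chromosome 17), shows the change with length at a single place. Capitals mark the bases beyond the 24 nt member.
24 nt: tagttggatcttgggagcgggcgg
25 nt: tagttggatcttgggagcgggcggG
26 nt: tagttggatcttgggagcgggcggGC
27 nt: tagttggatcttgggagcgggcggGCG

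The 24 nt tag had 4756 reads in DMSO and 2652 in AICAR, a ratio of 0.499 (0.476 to 0.523). The 25 nt tag had 7301 and 1914 reads, a ratio of 0.235 (0.223 to 0.247). The 26 nt tag had 2921 and 259 reads, a ratio of 0.0793 (0.0696 to 0.0901), and the 27 nt tag 5585 and 252 reads, a ratio of 0.0404 (0.0354 to 0.0458). Each base that was present at the 3′ end went with a lower ratio, and no 2 of these intervals overlapped. The 27 nt tag was chosen for its low ratio, so the order is a description.

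SnoRNA members lay at the ends of their genes. Within 5 nt of the 5′ end began 41.5% of the snoRNA reads in DMSO and 42.5% in AICAR, within 5 nt of the 3′ end ended 54.6% and 54.8%, and only 3.92% and 2.78% lay between. Without the 3 leading genes, the middle held 51.4% and 38.2%, so this pattern belonged to the leaders. Rnu3a, a U3 snoRNA needed for the first cleavages of the ribosomal RNA precursor, lies on the plus strand of chromosome 10 (40258467 to 40258679). It had 3227 RPM in DMSO and 3987 in AICAR, a ratio of 1.24 (1.22 to 1.25), and 99.8% and 99.9% of these reads ended at its 3′ end. Gm23212, a snoRNA on the plus strand of chromosome 1 (161036682 to 161036741) whose sequence is also part of retained-intron transcripts of Gas5, had 2933 and 3813 RPM, a ratio of 1.30 (1.29 to 1.31). All of its 16 members began within 5 nt of its 5′ end. The leading pair of each gene is shown because the ratio moved with 1 or 2 bases at an end, which the capitals mark.
Rnu3a, 26 nt: agagggagaggacacagtctgagtgg
Rnu3a, 27 nt: agagggagaggacacagtctgagtggT
Gm23212, 25 nt: gcatgatgacgaacaaatactgact
Gm23212, 27 nt: CTgcatgatgacgaacaaatactgact

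The 26 nt tag of Rnu3a, at chr10:40258653-40258678, had 1711 RPM in DMSO and 1787 in AICAR, a ratio of 1.04 (1.03 to 1.06), and the 27 nt tag had 967 and 1425 RPM, a ratio of 1.47 (1.45 to 1.501). For Gm23212 the order of lengths was the reverse. Its 27 nt tag, at chr1:161036683-161036709, had 1467 and 1529 RPM, a ratio of 1.04 (1.03 to 1.06), and its 25 nt tag had 1098 and 1910.1 RPM, a ratio of 1.74 (1.71 to 1.77). Gm23927, a U3-like snoRNA entry on the minus strand of chromosome 19 (4078297 to 4078512), shares its leading tag with 5 other genes, the Rnu3b copies among them. It had 842 and 1211 RPM, a ratio of 1.44 (1.41 to 1.47). Its 26 nt tag 1 base shorter at the 5′ end than the leading 27 nt tag had a ratio of 3.36 (3.17 to 3.55), against 1.13 (1.0997 to 1.16) for the leading tag.

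Y RNAs, small cytoplasmic RNAs bound by the Ro protein, gave tags from opposite ends. Rny1, on the minus strand of chromosome 6 (47788069 to 47788180), had 323 RPM in DMSO and 327 in AICAR, a ratio of 1.01 (0.976 to 1.05). Tags at its 5′ end had 87.8 RPM in DMSO and 25.7 in AICAR, a ratio of 0.292 (0.265 to 0.322), and tags at its 3′ end had 149.7 and 202 RPM, a ratio of 1.35 (1.29 to 1.42). Rny3, on the plus strand of chromosome 6 (47781624 to 47781725), had 96.2% of its reads at the 5′ end in both libraries, and its total was 174 RPM in DMSO and 212 in AICAR, a ratio of 1.22 (1.16 to 1.27).

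The remaining genes among the 10 with the most reads were covered by fewer reads. Lars2, which encodes the mitochondrial leucyl-tRNA synthetase, had 318 members with 1029.7 RPM in DMSO and 1188 in AICAR, a ratio of 1.15 (1.13 to 1.18). They lay between bases 3030 and 3416 of a transcript of 3894 nt, and 90 also matched another gene. Gm15564, an antisense entry, had 60 members with 340 RPM in DMSO and 243 in AICAR, a ratio of 0.715 (0.689 to 0.742). Its leading tag shares most of its bases with the second most abundant Lars2 tag. Complete large ribosomal RNAs were not among the transcripts used, and whether these members came from Lars2 or Gm15564 transcripts was not tested. Gm22109, a 5S rRNA entry whose leading tag matches 51 genes, had 176 and 213 RPM, a ratio of 1.22 (1.16 to 1.27). Gm43846, a sense-intronic entry on the minus strand of chromosome 3 (104957442 to 104958373), had the largest ratio of the 10 genes. Its 19 members had 63.7 RPM in DMSO and 428 in AICAR, a ratio of 6.72 (6.32 to 7.14). They lay between bases 678 and 714 of the transcript of 932 nt, and 13 of the 19 were at least 2-fold higher, against 38.2% of all members and 32.7% of all tags with at least 10 reads. Cytoplasmic transfer RNA genes were not among the transcripts used, and whether these 19 members came from a Gm43846 transcript was not tested. The leading tag, of 27 nt, lies at chr3:104957669-104957695.
Gm43846: gttggtggtatagtggtgagcatagct

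This tag had 240 reads in DMSO and 4474 in AICAR, a ratio of 16.7 (14.6 to 19.1). The 24 nt tag with the same 5′ end had 381 and 1882 reads, a ratio of 4.42 (3.96 to 4.95).

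Single members spread far more widely than the total. A ratio of at least 2 was found for 10839 members (38.2%), against 32.7% of all 96635 tags with at least 10 reads, and a ratio of at most 0.5 for 5535 members (19.5%), against 27.1%. For a tag without reads in a library a floor of 3 reads was used, 0.159 RPM in DMSO and 0.142 RPM in AICAR. The interval for counting error left out 1 for 8887 of the 10839 higher members and for 4234 of the 5535 lower members. These members were chosen on the same reads, which favours such intervals, so the counts are a description. Of all members past these limits 66.2% were higher in AICAR, and 53.1% when reads were scaled per hairpin read. The median log2 ratio of the members was 0.42, against 0.06 over all tags with at least 10 reads. It fell with length, from 0.58 at 24 nt through 0.52 and 0.30 to 0.06 at 27 nt. The share of members at least 2-fold higher fell from 41.0% at 24 nt to 31.5% at 27 nt, and that at least 2-fold lower rose from 16.7% to 25.3%. Among matched members, 20.2% were at least 2-fold higher and 24.8% at least 2-fold lower, with a median log2 ratio of -0.12. Members that were abundant differed less, and of the 1111 with at least 1000 reads 19.4% were at least 2-fold higher and 15.1% lower.

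Members at least 10-fold higher outnumbered those at least 10-fold lower, as they did among all tags. There were 2742 members at least 10-fold higher in AICAR (9.67%, against 8.21% of all tags with at least 10 reads) and 842 at least 10-fold lower (2.97%, against 3.78%). The higher set summed to 1004 RPM in DMSO and 23821 in AICAR, a ratio of 23.7 (23.4 to 24.1), and made up 0.346% of the member reads in DMSO and 7.71% in AICAR. The median member of this set had 1 read in DMSO and 41 in AICAR, and 206 had none in DMSO. The lower bound of the interval was at least 4 for 1642 of the set, which was chosen on the same reads. At least 10 reads were present in DMSO for 306 of the set and in AICAR for all 2742. The lower set summed to 6275 RPM in DMSO and 343 in AICAR. All members within 10-fold summed to 283125 and 284889 RPM, a ratio of 1.01 (1.005 to 1.01). Since these sets were chosen on the ratio, their totals describe where the difference lies.

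The members at least 10-fold higher differed from the rest in measures that the ratio did not set. Of them 1.42% matched a transcript in sense, against 12.7% of the members within 10-fold. Their median GC content was 38.5%, against 52.0%. Of the members at least 10-fold lower, 10.7% matched in sense, and their median GC content was 44.0%. Both strands of 1 sequence were present for 20.1% of the higher set, in the sense that their reverse complement shared 18 bases with another member of the set. The share was 4.74% for the members within 10-fold and 1.31% for those at least 10-fold lower. These sets hold 2742, 24783 and 842 members, and a larger set offers more possible partners. Counted once per member, T opened 29.9% of the higher set, against 22.4% of the members within 10-fold, with interior shares of T of 26.1% and 21.9%. In the lower set T opened 25.5%, with an interior share of 22.9%. The higher set formed 1304 chains, the largest of 46 members. The source of these tags was not tested, an origin outside the mouse cells included. The counts of higher members and the total ratio of 1.06 hold these tags. Among the members within 10-fold, 32.7% were at least 2-fold higher and 18.9% at least 2-fold lower, and their total ratio was 1.01. Sequences of the unmatched tags in the higher set are not shown, since no match places them in the mouse. Such tags also lay outside 24 to 27 nt. Among non-hairpin tags with at least 10 reads, the share at least 10-fold higher was 3.09% at 18 nt, 9.75% at 20 nt and 8.53% at 22 nt, and it was highest at 24 nt with 10.4%. It was 7.99% at 27 nt, 5.68% at 28 nt and 2.70% at 30 nt, and among hairpin tags of 22 nt it was 0.262%.

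**Figure D5:**
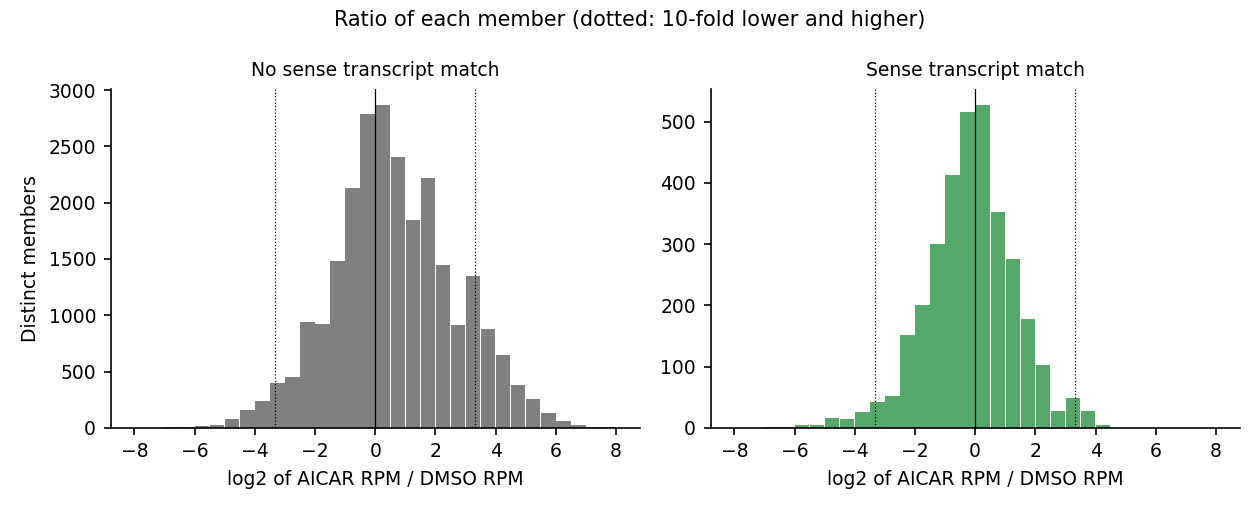
Number of distinct members (vertical axis) by log2 of the ratio of AICAR to DMSO RPM (horizontal axis, bins of 0.5) for members without (left) and with (right) a sense transcript match. Dotted lines mark 10-fold lower and higher. The left histogram has a long right arm, and beyond the right dotted line lie 2742 members of which 39 are matched.

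Some extremes among members with at least 1000 reads were single tags and others were sets with 1 start. The highest ratio, 105 (86.5 to 130), belonged to a 27 nt tag with 99 reads in DMSO and 11668 in AICAR. The most abundant of the extremes, a 24 nt tag, had 599 and 63223 reads, a ratio of 94.4 (87.1 to 103), and ranked 20 among all members. It was 12.6% of the AICAR reads of the members at least 10-fold higher. The other 3 of the 5 highest had ratios from 77.7 to 90.5. At the start of the rank 766 tag, with a ratio of 77.7 at 26 nt, the ratio was also 72.2 at 24 nt, 68.1 at 25 nt and 27.8 at 27 nt. At the start of the 27 nt tag with a ratio of 105, it was 14.8 at 24 nt (2 reads in DMSO and 33 in AICAR) and 8.95 at 25 nt (1 and 10 reads). At the start of the rank 20 tag, the longer members had ratios from 1.19 to 21.5, with 12 to 336 reads in AICAR. The 5 highest were all unmatched, and 3 of them belonged to 1 chain of 73 members, which had 222 RPM in DMSO and 4289 in AICAR. The lowest ratio, 0.0236 (0.0216 to 0.0258), belonged to an unmatched 27 nt tag with 19385 reads in DMSO and 511 in AICAR. The members with the same start gave ratios of 0.0758 at 26 nt, 0.347 at 25 nt and 0.655 at 24 nt. The other 4 of the 5 lowest, 3 of 27 nt and 1 of 26 nt, had ratios from 0.0328 to 0.0442, and 2 of them were Gm42418 tags, the 27 nt tag shown above and the tag that begins 1 base before it. At each of these 5 starts the 24 nt member had a ratio between 0.451 and 1.22, above that of the longer members. These starts were picked for the low ratio of a 26 or 27 nt tag, so the choice itself favours this order.

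Some members were close to hairpins although none matched one in full. The first 18 bases of 1557 members (5.49%) matched a hairpin, and 796 members lay 1 substitution from one. The 1557 members held 1.65% of the member reads in DMSO and 2.40% in AICAR with 4805 and 7402 RPM, a ratio of 1.54 (1.53 to 1.55). The first base that no longer matched was A for 57.5% of their reads and T for 36.6%, and members with only the last base unmatched accounted for 51.0%. Added A and U are known as tails of miRNAs, but an added base and a substituted last base were not told apart here. The hairpins with the most such reads were Mir181d with 49 members (ratio 1.77), Mir298 with 111 (ratio 1.41), and Mir290a with 61 (ratio 1.72), the last from the cluster that is typical of mouse ES cells. Mir127, the next by reads, had 35 members and a ratio of 1.09. Mir291a, of the Mir290a cluster, had 78 members and a ratio of 2.71. Per hairpin read each of these ratios is 0.741 times as large. Members that end in CCA, the triplet added to the 3′ end of mature tRNAs, numbered 637 (2.25%). They held 1.14% of the member reads in DMSO and 0.953% in AICAR, a ratio of 0.887 (0.878 to 0.897). These shares were not set beside those of other end triplets, and an origin from tRNAs was not tested.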

How the data were processed

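The authors size-selected total RNA for 18 to 30 nt, sequenced it, removed low-quality and contaminant reads and collapsed clean reads into tags. The deposited values are raw read counts per tag, without normalization or alignment. Per the labels the build was mm9. Here positions come from GENCODE vM21 (GRCm38) transcripts, and no position was converted. Depth was 18870345 (DMSO) and 21091226 (AICAR) clean reads, and RPM used these totals.

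Tags were matched without mismatch to 141767 transcripts, the 2202 miRNA entries serving as hairpins. A tag with several types was counted for the first of a fixed order from mitochondrial and small RNAs to mRNA, long non-coding RNA and pseudogenes. Ratios carry exact binomial (Clopper-Pearson) and shares Wilson 95% intervals. Described singly were the 10 most abundant members, the first of each type with at least 1% of the reads, the 5 highest and 5 lowest ratios at 1000 or more reads, and the 10 genes with the most reads with the 3 first of each such type. Members, lists and rules were chosen with earlier results of these data known. Showing the 10 leaders, although unmatched, and the set of 4 lengths on Gm42418 was decided after their values were seen. Tags with a match on chromosome 18 are not shown. The first long non-coding member is not reported here. Alternatives varied the denominator, the minimum of reads, the hairpin set and the match rule. Matching was tested on simulated tags. Python 3.11.15, pandas 2.3.3, scipy 1.17.1 and R 4.3.3 were used, with edgeR 4.0.16 only for TMM factors. Genome matches were not analysed here.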

Additional observations from a re-analysis of the deposited data

How the results depend on the processing

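No paired analysis was possible because there was 1 library per condition, and for the same reason no replicate could be left out. The total ratio of 1.06 was 1.12 per non-hairpin read, 1.11 with TMM factors and 1.23 with median-ratio size factors, but 0.788 per hairpin read, so its direction rests on the denominator. It was 1.099 without the first member and 1.053 without the first 10, and 1.12, 1.21, 0.965 and 0.843 at 24, 25, 26 and 27 nt. Per hairpin read, 53.1% of the members at least 2-fold apart were higher in AICAR, against 66.2% as reported. The shift of all log2 ratios was -0.43 per hairpin read and 0.21 with median-ratio factors.

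With at least 100 reads, there were 5718 members, the ratio was 1.050, T at base 1 12.03%, A at base 10 41.08%, the 10 leaders 35.6% and transcript matches 13.01%, with 1537 members at least 2-fold higher and 940 lower. With no minimum these were 566099 members, 1.08, 13.4%, 39.4%, 31.6% and 13.4%. With only Mir-named hairpins left out, A at base 10 was 40.17%, the leaders 33.66% and matches 13.03%. Without tags 1 substitution from a hairpin the ratio, T1, A10, leaders and matches were 1.06, 12.5%, 40.6%, 34.2% and 13.1%, and without 18-base hairpin starts 1.056, 12.3%, 40.7%, 34.4% and 13.1%.

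Without the first member, T at base 1 was 14.5%, A at base 10 31.5% and matches 14.8%, and without the first 10 they were 16.0%, 24.8% and 19.5%. At 24, 25, 26 and 27 nt T at base 1 was 8.81%, 11.8%, 19.8% and 14.7%, A at base 10 43.8%, 44.1%, 29.0% and 39.4%, and matches 9.85%, 12.1%, 15.6% and 19.4%. Counted once per member they were 23.2%, 24.7% and 11.6%. Matches on either strand made 15.7%, and 15.4% when the last 3 bases could differ. The causes of these shifts were not tested. Depth limits single members, since the median of 26 reads leaves wide intervals.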
